A study of Mus musculus with 10 samples.

Results

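Endothelial genes were followed across colon libraries of C57BL/6 mice: Cdh5, Pecam1, Kdr, Flt1, Eng, Tek, Vwf and Emcn, which mark blood vessels, and Prox1 and Lyve1, which mark lymphatic vessels. They were chosen by name as established markers, and the RefSeq transcripts mapped to each symbol were summed. All 10 were found among the 23488 gene rows of the table, and all 10 passed the filter for testing (at least 1 FPKM, fragments scaled by transcript length and library size, in at least 2 libraries), which left 14061 genes. Prox1 passed it only through the libraries of carcinogen-treated mice.

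RNA-seq was used to ask what aspirin (ASA), curcumin (CUR) or both in the diet change in the colon of mice given the carcinogen azoxymethane (AOM) and then dextran sulfate sodium (DSS), which injures the gut lining. Mice of the ASA, CUR and ASA+CUR diets were given 10 mg/kg AOM under the skin at 6 weeks of age and, 1 week later, 1.2% DSS in the drinking water for 7 days, with AIN-93M diet holding 0.02% ASA, 2% CUR, or 0.01% ASA and 1% CUR. The Model group received AOM and DSS at the same age and doses with plain AIN-93M. The Control group received saline at the same age, no DSS and plain AIN-93M. Each group had 2 libraries, numbered 0 and 1, and the labels do not say whether these came from separate mice, so p-values measure a spread that may be technical. The tissue of the 4 AOM/DSS groups is labelled as tumor samples and that of Control as colonic tissue, while the protocol describes frozen colon left after palpable tumours were taken out. How much tumour each AOM/DSS library held is therefore unknown, and AOM/DSS treatment and kind of tissue cannot be told apart.

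Blood endothelial cells line vessels and hold together through the adherens junction protein VE-cadherin and the adhesion molecule CD31. They take up growth signals through receptors for VEGF (vascular endothelial growth factor), for angiopoietins and for ligands of the TGF-beta family. Lymphatic endothelial cells take their identity from the transcription factor Prox1, and many carry the hyaluronan receptor Lyve1. In the colon, Prox1 is also known outside lymphatic vessels: it is present in enteroendocrine cells of mice and is switched on by Wnt signalling in intestinal tumours.

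Cdh5 and Prox1 were higher over the AOM/DSS groups than in Control, and the other 8 genes did not pass the test. Cdh5 averaged 21.3 FPKM over the 8 AOM/DSS libraries and 6.53 FPKM over the 2 Control libraries, a 3.27-fold difference. Prox1 averaged 37.9 FPKM over the AOM/DSS libraries and 0.745 FPKM over the Control libraries, 50.9-fold. Lyve1, the other lymphatic marker, averaged 11.6 FPKM in the AOM/DSS libraries and 14.2 FPKM in the Control libraries. The test was limma's moderated test on log2(FPKM + 1) with Benjamini-Hochberg adjustment over all tested genes at 0.05, and all log2 differences below are on that scale, which understates the change of low genes. In bulk tissue, fewer cells of a type and less RNA per cell cannot be told apart.

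Of the 10 genes, 2 rose and 0 fell in the AOM/DSS groups against Control, where 31.5% of all tested genes passed the threshold and 14.6% passed it as higher. Prox1, among the 2, was under 1 FPKM in both Control libraries and reached the test only through the AOM/DSS libraries. It could therefore only be found higher, and the count supports no direction of the 10 genes. The median log2 difference of the 10 genes was 0.29, beside 0.02 over all tested genes. Libraries of the AOM/DSS groups and of Control did not overlap for Cdh5, Eng and Prox1, all higher with AOM/DSS, as was the case for 20.1% of tested genes. The comparisons of the 4 AOM/DSS groups with Control use the same 2 Control libraries. In those, 2 of the 10 genes rose in ASA (9.78% of all tested genes were called higher), 1 in CUR (6.67%), 1 in ASA+CUR (13.1%) and 2 in Model (6.84%). Prox1 was among the genes called in all 4 groups, and in CUR and ASA+CUR it was the only one, so these counts carry the same limit. No gene of the 10 was called lower in any of the 4 comparisons. The median log2 difference of the 10 genes from Control was 0.50 in ASA, -0.07 in CUR, 0.17 in ASA+CUR and 0.61 in Model, with medians over all tested genes between 0.01 and 0.03.

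**Figure D1:**
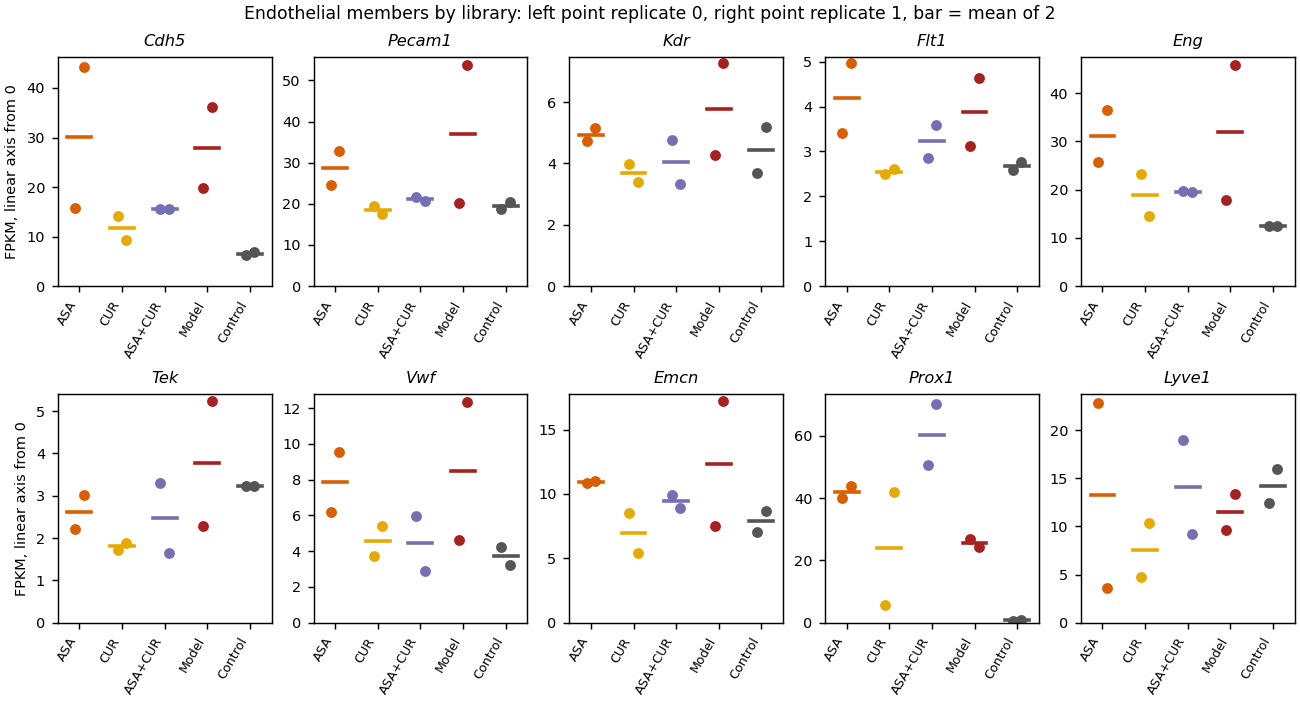
FPKM of each of the 10 genes in every library, on a linear axis from 0 per gene, with groups from left to right ASA, CUR, ASA+CUR, Model and Control; each point is 1 library and each bar the mean of the 2 libraries of a group. Prox1 lay between 5.74 and 70.0 FPKM in the AOM/DSS libraries and at 0.676 and 0.813 FPKM in Control, while most blood vessel genes overlapped between groups.

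Cdh5 encodes VE-cadherin, the cadherin of endothelial adherens junctions, and lies on chromosome 8 at 104101613 to 104144504 on the plus strand (GRCm38.p6). Its level was 15.9 and 44.3 FPKM in ASA, 14.2 and 9.37 FPKM in CUR, 15.6 and 15.5 FPKM in ASA+CUR, 19.8 and 36.1 FPKM in Model, and 6.20 and 6.85 FPKM in Control (replicates 0 and 1). Every AOM/DSS library lay above both Control libraries. ASA replicate 1 and Model replicate 1 stood highest, and CUR replicate 1 was the lowest of the AOM/DSS libraries.

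Cdh5 rose in ASA against Control by 1.88 ± 0.45 (log2, SE; adjusted p = 0.0228, limma) and in Model against Control by 1.88 ± 0.45 (adjusted p = 0.0294). The difference from Control was 1.14 ± 0.45 in ASA+CUR (adjusted p = 0.0947) and 0.74 ± 0.45 in CUR (adjusted p = 0.315), neither past the threshold. Over all AOM/DSS groups the difference from Control was 1.41 ± 0.36 (adjusted p = 0.0203). These calls rest on few libraries. Without Control replicate 0 or 1 the adjusted p was 0.145 or 0.121 over all AOM/DSS groups, 0.142 or 0.135 in Model and 0.115 or 0.101 in ASA, with log2 differences of 1.35 to 1.95. Without Model replicate 1 the Model difference was 1.47 (adjusted p = 0.140), and without ASA replicate 1 the ASA difference was 1.17 (adjusted p = 0.0883). With only the ASA and Control libraries in the fit, the ASA call was lost at an adjusted p of 0.0528. In ASA+CUR the call was gained with only the groups compared (adjusted p = 0.00302) and without ASA replicate 0 or 1 (adjusted p = 0.0297 or 0.0301).

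Pecam1 encodes CD31, an adhesion molecule of endothelial contacts that platelets and leukocytes also carry, and lies on chromosome 11 at 106654213 to 106715281 on the minus strand. Its level was 24.7 and 32.8 FPKM in ASA, 19.5 and 17.4 FPKM in CUR, 21.7 and 20.7 FPKM in ASA+CUR, 20.2 and 53.9 FPKM in Model, and 18.7 and 20.4 FPKM in Control. Model replicate 1 stood far above its partner, both ASA libraries lay above Control, and the remaining AOM/DSS libraries lay close to Control. The difference of all AOM/DSS groups from Control was 0.32 ± 0.30 (adjusted p = 0.447). Without Model replicate 0, Pecam1 passed the threshold in Model (1.42, adjusted p = 0.0121) and over all AOM/DSS groups (0.49, adjusted p = 0.0341).

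The proportion of the 2 genes of endothelial contacts differed between the AOM/DSS and Control libraries, of which only Cdh5 was called higher. The ratio of Cdh5 to Pecam1 FPKM was 0.643 and 1.35 in ASA, 0.729 and 0.538 in CUR, 0.721 and 0.747 in ASA+CUR, 0.980 and 0.670 in Model, and 0.331 and 0.336 in Control. All 8 AOM/DSS libraries lay above both Control libraries, and the geometric mean ratio was 2.30-fold higher. An exact two-sided permutation test over the 45 splits of 8 against 2 libraries gave p = 0.0444, the smallest it can give. Cdh5 was also higher in the AOM/DSS libraries relative to Kdr (2.83-fold), Flt1 (2.30-fold), Eng (1.53-fold), Tek (3.78-fold) and Emcn (2.41-fold), each without overlap and at the same p. Relative to Vwf it was 1.86-fold higher with overlapping libraries (exact p = 0.0889). These ratios were chosen after their values were seen. Adjusted over the 8 ratios computed, the smallest p became 0.0508, so none passed 0.05. Cdh5 was the only blood vessel gene called over all AOM/DSS groups. Its ratios to genes that were not called therefore restate the Cdh5 difference and give it no separate support. How often such ratios differ without overlap among all tested genes was not tested. A ratio shows unequal change and not which of its genes changed.

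**Figure D2:**
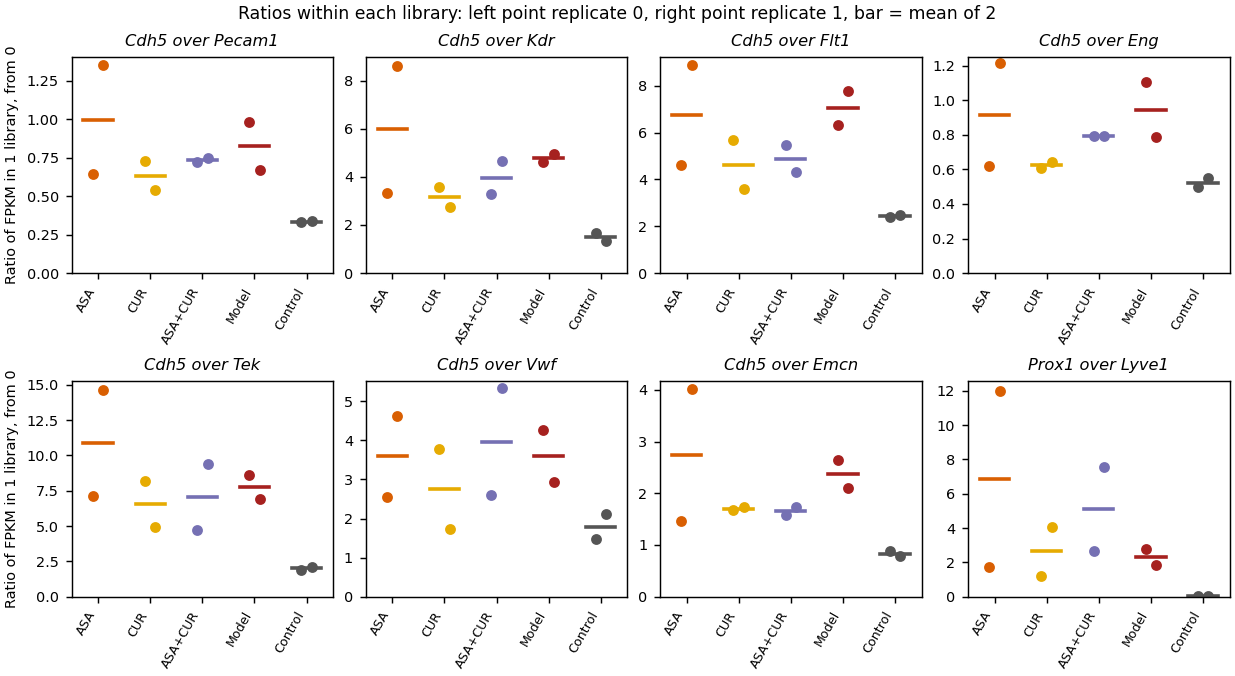
Ratio of Cdh5 to the other 7 blood vessel genes and of Prox1 to Lyve1 (FPKM over FPKM, linear axes from 0) in each library, with points for libraries, bars for the mean of 2, and groups from left to right ASA, CUR, ASA+CUR, Model and Control. The Cdh5 to Pecam1 ratio was 0.538 to 1.35 in the AOM/DSS libraries and 0.331 to 0.336 in Control, and the Prox1 to Lyve1 ratio was 1.21 to 12.0 in the AOM/DSS libraries and 0.0510 to 0.0546 in Control.

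The VEGF receptors Kdr and Flt1 were low, and neither passed the threshold over all AOM/DSS groups. Kdr (VEGFR2, the main signalling receptor of blood vessels for VEGF-A) lies on chromosome 5 at 75932827 to 75979072, and Flt1 (VEGFR1, which binds VEGF-A, VEGF-B and placental growth factor) on chromosome 5 at 147561604 to 147726438, both on the minus strand. Kdr was at 4.74 and 5.14 FPKM in ASA, 3.97 and 3.40 FPKM in CUR, 4.78 and 3.32 FPKM in ASA+CUR, 4.27 and 7.27 FPKM in Model, and 3.69 and 5.19 FPKM in Control. All AOM/DSS libraries but 3 lay between the 2 Control libraries. The difference of all AOM/DSS groups from Control was 0.03 ± 0.21 (95% interval -0.46 to 0.52, adjusted p = 0.929), and its sign turned under 5 of 20 alternative settings.

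Flt1 was at 3.42 and 4.98 FPKM in ASA, 2.50 and 2.61 FPKM in CUR, 2.86 and 3.60 FPKM in ASA+CUR, 3.13 and 4.64 FPKM in Model, and 2.58 and 2.77 FPKM in Control. ASA, ASA+CUR and Model libraries all lay above Control, while CUR replicate 0 lay below Control and CUR replicate 1 between its libraries. The difference from Control was 0.48 ± 0.23 in ASA (adjusted p = 0.165), 0.39 ± 0.23 in Model (adjusted p = 0.283) and 0.26 ± 0.18 over all AOM/DSS groups (adjusted p = 0.310).

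Eng encodes endoglin, a co-receptor for ligands of the TGF-beta family on endothelium, and lies on chromosome 2 at 32646595 to 32682669 on the plus strand. It was at 25.7 and 36.5 FPKM in ASA, 23.2 and 14.5 FPKM in CUR, 19.7 and 19.5 FPKM in ASA+CUR, 17.9 and 45.8 FPKM in Model, and 12.5 and 12.4 FPKM in Control. Every AOM/DSS library lay above both Control libraries. The mean was 25.3 FPKM over the AOM/DSS libraries and 12.5 FPKM over Control, 2.03-fold, with a log2 difference of 0.88 ± 0.32 that did not pass the threshold (adjusted p = 0.0694). It did pass without Model replicate 0 (1.04, adjusted p = 0.0100), or Model replicate 1 (0.71, adjusted p = 0.0369). The difference from Control was 1.23 ± 0.40 in ASA (adjusted p = 0.0626) and 1.14 ± 0.40 in Model (adjusted p = 0.0945). In ASA it passed with only the groups compared (adjusted p = 0.0190) and without Model replicate 0 or 1 (adjusted p = 0.0158 or 0.0159). In Model it passed without Model replicate 0 (1.79, adjusted p = 0.0176).

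Tek encodes Tie2, the receptor for angiopoietins, and lies on chromosome 4 at 94739086 to 94874976 on the plus strand. It was at 2.22 and 3.02 FPKM in ASA, 1.73 and 1.89 FPKM in CUR, 3.29 and 1.65 FPKM in ASA+CUR, 2.29 and 5.23 FPKM in Model, and 3.23 and 3.24 FPKM in Control. It was below both Control libraries in 6 of the 8 AOM/DSS libraries, and clearly above them only in Model replicate 1. The difference of all AOM/DSS groups from Control was -0.26 ± 0.27 (adjusted p = 0.480).

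Vwf encodes von Willebrand factor, the clotting glycoprotein stored by endothelium and platelets, and lies on chromosome 6 at 125552948 to 125686679 on the plus strand. It was at 6.20 and 9.57 FPKM in ASA, 3.75 and 5.42 FPKM in CUR, 5.99 and 2.90 FPKM in ASA+CUR, 4.63 and 12.3 FPKM in Model, and 4.24 and 3.23 FPKM in Control. ASA and Model libraries lay above Control, and CUR and ASA+CUR libraries overlapped with it. The difference of all AOM/DSS groups from Control was 0.54 ± 0.35 (adjusted p = 0.277).

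Emcn encodes endomucin, a sialoglycoprotein of capillary and venous endothelium, and lies on chromosome 3 at 137341062 to 137431069 on the plus strand. It was at 10.8 and 11.0 FPKM in ASA, 8.49 and 5.41 FPKM in CUR, 9.91 and 8.94 FPKM in ASA+CUR, 7.51 and 17.2 FPKM in Model, and 7.07 and 8.70 FPKM in Control. The ASA and ASA+CUR libraries lay above Control, and CUR replicate 1 was the lowest of all. The difference of all AOM/DSS groups from Control was 0.24 ± 0.27 (adjusted p = 0.524).

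The 8 blood vessel genes differed between the libraries of a group. Each gene's FPKM was divided by its Control mean, and the median of these 8 folds was taken in each library. It was 1.33 and 1.77 in ASA, 0.999 and 0.933 in CUR, 1.18 and 1.10 in ASA+CUR, 1.10 and 2.47 in Model, and 0.961 and 1.04 in Control. In Model replicate 1 all 8 genes lay above both Control libraries, against 4 of 8 in Model replicate 0. In the CUR libraries 2 and 3 of the 8 lay above both Control libraries, and 2 and 4 lay below both.

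**Figure D3:**
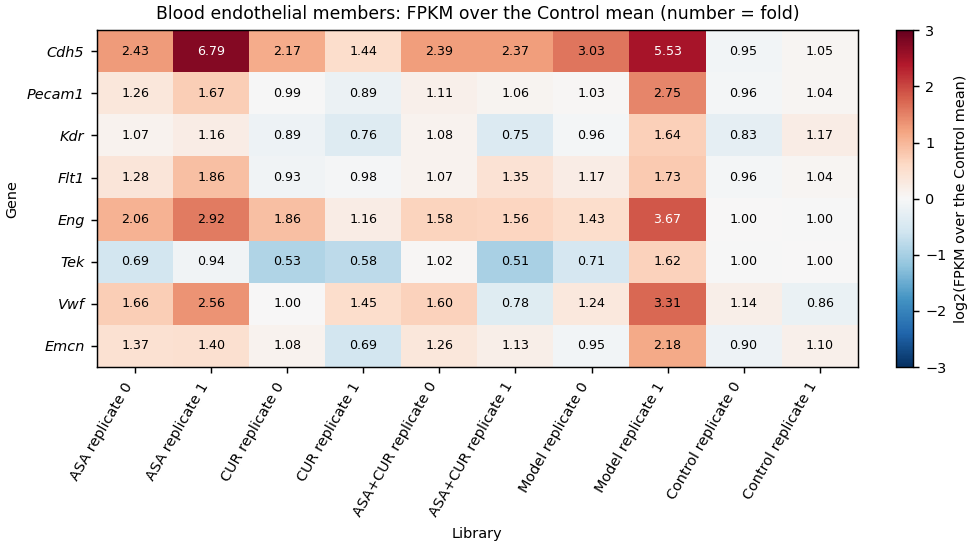
FPKM of the 8 blood vessel genes divided by their Control mean (printed value, a fold without unit; colour, its log2) in each library, with groups from left to right ASA, CUR, ASA+CUR, Model and Control. Model replicate 1, with a median fold of 2.47, and ASA replicate 1, with 1.77, stood above their partners at 1.10 and 1.33.

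Marker sums of other cells also differed between libraries and groups. Of the sums below, only that of macrophage and leukocyte genes had its highest values in Model replicate 1 and ASA replicate 1. The summed FPKM of 11 macrophage and leukocyte genes was 556 to 1799 in the AOM/DSS libraries, highest in Model replicate 1 and next in ASA replicate 1 (1426), and 258 to 347 in Control, and 7 of the 11 were called higher. Smooth muscle genes summed to 298 to 906 FPKM in the AOM/DSS libraries and 5546 to 9101 FPKM in Control, and all 10 were called lower. Fibroblast genes summed to 654 to 1347 FPKM in the AOM/DSS libraries and 584 to 678 FPKM in Control (5 of 10 called higher, 2 lower), and epithelial genes to 5775 to 13752 FPKM and 8369 to 9522 FPKM (none of 10 called by limma, 1 at an unadjusted p under 0.05). Platelet genes summed to 28.2 to 129 FPKM in the AOM/DSS libraries and 16.9 to 17.3 FPKM in Control (2 of 4 tested called higher), and red cell genes to 55.0 to 432 FPKM and 31.2 to 40.7 FPKM (1 of 5 tested called higher). Of these, Ppbp and Itga2b (platelet) and Hba-a2 and Alas2 (red cell) reached the test only through the AOM/DSS libraries, so the 2 counts support no direction. Ppbp alone was at 77.0 FPKM in ASA replicate 0 and 86.7 FPKM in ASA+CUR replicate 0. Over all tested genes 14.6% were called higher and 16.9% lower. None of these marker genes was at 0 in all libraries. Their part in the values of the endothelial genes was not tested.

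Prox1, the homeobox transcription factor that sets lymphatic identity, lies on chromosome 1 at 190118035 to 190170827 on the minus strand. It was at 39.9 and 43.8 FPKM in ASA, 5.74 and 42.1 FPKM in CUR, 50.7 and 70.0 FPKM in ASA+CUR, 27.0 and 24.3 FPKM in Model, and 0.676 and 0.813 FPKM in Control. Every AOM/DSS library lay above both Control libraries, and CUR replicate 0 lay far below the other 7. The order of the group means was ASA+CUR (60.4 ± 13.7 FPKM, SD, n = 2), ASA (41.8 ± 2.73), Model (25.6 ± 1.91), CUR (23.9 ± 25.7) and Control (0.745 ± 0.0965). Model and CUR overlapped in their libraries, as did ASA and CUR.

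With both Control libraries under 1 FPKM, Prox1 reached the test only through the AOM/DSS libraries. The tests could therefore only find it higher, and its direction rests on the FPKM values above. Prox1 rose against Control by 4.62 ± 0.69 in ASA (log2, SE; adjusted p = 0.00346, limma), 3.29 ± 0.69 in CUR (adjusted p = 0.0175), 5.12 ± 0.69 in ASA+CUR (adjusted p = 0.00184) and 3.93 ± 0.69 in Model (adjusted p = 0.00973). Over all AOM/DSS groups it rose by 4.24 ± 0.55 (adjusted p = 0.00117), and that call held under all 20 alternative settings (highest adjusted p = 0.0208). The ASA and ASA+CUR calls also held under every setting tried. The Model call was lost without Control replicate 0 or 1 (adjusted p = 0.0659 or 0.0647) and without Model replicate 1 and ASA replicate 1 together (adjusted p = 0.0709). The CUR call was lost likewise (adjusted p = 0.101 or 0.0945), and with only the groups compared (adjusted p = 0.0940).

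Enteroendocrine genes and Wnt targets moved in opposite directions beside Prox1. Enteroendocrine genes summed to 24.5 to 233 FPKM in the AOM/DSS libraries and 637 to 641 FPKM in Control, and 7 of 9 tested fell. Of the 9, Neurod1, Insm1 and Neurog3 reached the test only through the Control libraries, so they could only be found lower. Over all tested genes 14.6% were called higher and 16.9% lower. Wnt target genes summed to 385 to 831 FPKM in the AOM/DSS libraries and 46.3 to 47.1 FPKM in Control, and all 10 rose, of which Notum and Sp5 reached the test only through the AOM/DSS libraries. The lowest Wnt target sum, 385, was in CUR replicate 0 and the highest, 831, in ASA+CUR replicate 1, the same libraries in which Prox1 was lowest and highest among the AOM/DSS libraries. Between these extremes the 2 orders differed. ASA replicate 0 had a Wnt target sum of 455 FPKM with Prox1 at 39.9 FPKM, and Model replicate 0 had 639 FPKM with Prox1 at 27.0 FPKM. The part of these cells or genes in the Prox1 values was not tested.

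The RefSeq promoter table matched 6 of the 10 genes: Kdr, Flt1, Eng, Tek, Emcn and Prox1, which has 2 start sites in it. The 250 bases before each start were searched on both strands for the core CTTTGA, which TCF factors of the Wnt pathway bind, and for the core GGAA of ETS factors, which many endothelial promoters are known to use. None of the 7 windows held CTTTGA, and 13.8% of all 32851 windows in the table do. All 7 held GGAA or its reverse complement, 2 to 5 times, and 93.4% of all windows hold it, with a median of 3 matches. Shown are both Prox1 windows, since Prox1 differed most between AOM/DSS and Control, with Eng, whose AOM/DSS and Control libraries did not overlap, and Kdr, whose libraries did. Each is printed 5′ to 3′ on the strand of its gene, from RefSeq GRCm38.p6, with GGAA and TTCC in capitals. A match is a description of the letters and not a bound site.

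Prox1 first start, chr1:190170828-190171077, minus strand, 2 matches: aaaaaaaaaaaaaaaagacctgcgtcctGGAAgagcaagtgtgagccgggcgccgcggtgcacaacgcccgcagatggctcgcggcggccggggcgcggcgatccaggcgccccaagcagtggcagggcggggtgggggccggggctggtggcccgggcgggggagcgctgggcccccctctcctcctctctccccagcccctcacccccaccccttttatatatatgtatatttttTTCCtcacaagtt
Prox1 second start, chr1:190169516-190169765, minus strand, 5 matches: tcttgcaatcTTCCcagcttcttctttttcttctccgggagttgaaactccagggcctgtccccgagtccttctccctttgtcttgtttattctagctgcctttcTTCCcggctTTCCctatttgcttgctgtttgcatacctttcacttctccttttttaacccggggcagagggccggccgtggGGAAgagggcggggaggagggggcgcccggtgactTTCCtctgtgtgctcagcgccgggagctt
Eng, chr2:32646345-32646594, plus strand, 3 matches: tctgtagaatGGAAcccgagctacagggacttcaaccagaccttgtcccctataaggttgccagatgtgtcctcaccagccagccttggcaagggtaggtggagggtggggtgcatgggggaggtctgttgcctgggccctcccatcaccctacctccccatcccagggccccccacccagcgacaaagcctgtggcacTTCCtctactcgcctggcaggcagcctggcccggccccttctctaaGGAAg
Kdr, chr5:75978456-75978705, minus strand, 4 matches: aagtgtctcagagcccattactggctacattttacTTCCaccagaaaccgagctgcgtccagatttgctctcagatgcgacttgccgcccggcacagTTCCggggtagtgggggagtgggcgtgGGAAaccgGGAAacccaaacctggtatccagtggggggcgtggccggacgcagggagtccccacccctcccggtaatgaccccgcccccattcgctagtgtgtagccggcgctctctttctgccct

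Lyve1, the hyaluronan receptor of lymphatic vessels, lies on chromosome 7 at 110850607 to 110862953 on the minus strand. It was at 22.8 and 3.65 FPKM in ASA, 4.74 and 10.4 FPKM in CUR, 19.0 and 9.24 FPKM in ASA+CUR, 9.67 and 13.4 FPKM in Model, and 12.4 and 15.9 FPKM in Control. The AOM/DSS libraries reached above and below the Control libraries, and the ASA libraries held both the highest and the lowest value. The difference of all AOM/DSS groups from Control was -0.44 ± 0.56 (95% interval -1.74 to 0.85, adjusted p = 0.578). The ratio of Prox1 to Lyve1 was 1.75 and 12.0 in ASA, 1.21 and 4.06 in CUR, 2.67 and 7.58 in ASA+CUR, 2.79 and 1.82 in Model, and 0.0546 and 0.0510 in Control. It was 60.3-fold higher in the AOM/DSS libraries (exact two-sided permutation p = 0.0444, the smallest possible, and 0.0508 adjusted over the 8 ratios). Prox1 was under 1 FPKM in both Control libraries and reached the test only through the AOM/DSS libraries. This ratio, chosen after its values were seen, therefore restates the Prox1 difference and gives it no separate support.

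Some of the other lymphatic genes had levels that followed those of Lyve1, and others did not. Flt4, the receptor VEGFR3 of lymphatic vessels, was at 5.06 and 1.64 FPKM in ASA, 1.60 and 2.44 FPKM in CUR, 4.98 and 2.77 FPKM in ASA+CUR, 2.35 and 4.48 FPKM in Model, and 3.11 and 4.18 FPKM in Control. As with Lyve1, ASA replicate 1 and CUR replicate 0 were the lowest libraries. Ccl21a, the chemokine by which lymphatic vessels draw in dendritic cells, was lowest in ASA replicate 1 (13.2 FPKM) and highest in ASA replicate 0 (86.4 FPKM), with 71.4 and 56.5 FPKM in Control. Across the 10 libraries, on log2(FPKM + 1), the median Pearson correlation with 9 lymphatic genes was 0.60 for Lyve1 (7 positive) and -0.04 for Prox1 (3 positive). Within the 8 AOM/DSS libraries the medians were 0.64 and 0.23. Over the 10 libraries Gata2 (r = -0.43) and Pdpn (-0.41) went against Lyve1, and Itga9 (0.0085) did not follow it. The genes positive with Prox1 were Foxc2 (0.85), Pdpn (0.72) and Gata2 (0.51). Within the AOM/DSS libraries these values were 0.67, -0.035 and -0.16. These are descriptions over libraries whose marker sums of other cells differed, and the part of those cells in the correlations was not tested.

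**Figure D4:**
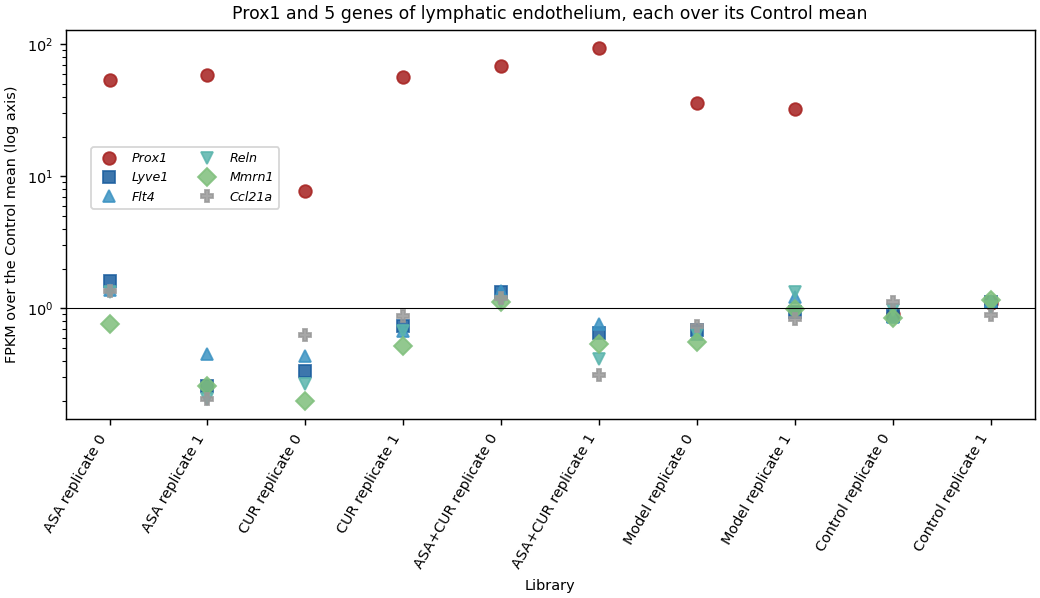
FPKM of Prox1, Lyve1, Flt4, Reln, Mmrn1 and Ccl21a divided by each gene's Control mean (log axis, line at 1) in each library, with groups from left to right ASA, CUR, ASA+CUR, Model and Control. Lyve1 and Flt4 were both lowest in ASA replicate 1 and CUR replicate 0 (Lyve1 3.65 and 4.74 FPKM), while Prox1 was at 43.8 FPKM in ASA replicate 1 and 5.74 FPKM in CUR replicate 0. Flt4, Reln, Mmrn1 and Ccl21a are the lymphatic genes most like Lyve1 over the 10 libraries (r = 0.81 to 0.94). Of the other tested lymphatic genes, Pdpn, Gata2, Itga9, Foxc2 and Nr2f2 are not drawn. Among these, Foxc2 (r = 0.85), Pdpn (0.72) and Gata2 (0.51) were positive with Prox1, and Itga9 (-0.70) and Nr2f2 (-0.044) were not. Within the AOM/DSS libraries Foxc2 was at 0.67, Pdpn at -0.035 and Gata2 at -0.16.

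Of 9 tested genes in the list of other lymphatic genes, 2 rose and 1 fell in the AOM/DSS groups against Control, with a median log2 difference of -0.22, beside 14.6% of all tested genes called higher and 16.9% called lower. Pdpn (podoplanin, also found on fibroblasts) rose by 1.33 (adjusted p = 0.0171, limma) and Foxc2 (a transcription factor of lymphatic valves) by 1.16 (adjusted p = 0.0448), and Foxc2 reached the test only through the AOM/DSS libraries. Itga9 (an integrin of lymphatic valves) fell by 0.73 (adjusted p = 0.0439). The Pdpn call was lost without Control replicate 0 or 1, and those of Foxc2 and Itga9 under 9 of 19 and 10 of 20 alternative settings.

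Among ligands and other receptors of the VEGF and angiopoietin families, 3 of 12 tested rose and 2 fell in the AOM/DSS groups against Control, beside 14.6% of all tested genes called higher and 16.9% called lower. Pgf and Angpt4, among the 3, were under 1 FPKM in both Control libraries and reached the test only through the AOM/DSS libraries. Pgf, placental growth factor, a ligand of Flt1, averaged 5.85 FPKM in the AOM/DSS libraries and 0.490 FPKM in Control (log2 difference 2.10, adjusted p = 0.00609, limma). Angpt4, an angiopoietin, rose by 1.50 (adjusted p = 0.0131) and Angpt2, the angiopoietin released by endothelium, by 1.90 (adjusted p = 0.0442). Angpt2 was at 1.55 FPKM in CUR replicate 0 and between 4.36 and 24.1 FPKM in the other AOM/DSS libraries, against 1.91 and 1.66 FPKM in Control, so its libraries overlapped. Nrp2, a co-receptor of VEGF-C, fell by 1.32 (adjusted p = 0.00580) and Vegfb, a ligand of Flt1, by 0.98 (adjusted p = 0.00812). Vegfa, the main ligand of Kdr, differed by 0.21 (adjusted p = 0.572), Vegfc by 0.14 (adjusted p = 0.788) and Vegfd by -0.19 (adjusted p = 0.600). Angpt1, the activating ligand of Tek, was below 1 FPKM in every library and was not tested. Without Control replicate 1 the calls of Pgf (adjusted p = 0.0759), Nrp2 (0.0840) and Angpt4 were lost, and without Control replicate 0 those of Vegfb (0.112) and Angpt4. The Angpt2 call was lost under 8 of 20 alternative settings.

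Of 31 further blood endothelial genes tested, 7 rose and 0 fell in the AOM/DSS groups against Control, with a median log2 difference of 0.50, beside 14.6% of all tested genes called higher. Ecscr, an endothelial regulator of cell movement, was at 57.6 to 82.5 FPKM in the AOM/DSS libraries other than Model replicate 1 (49.5 FPKM), against 22.6 and 14.6 FPKM in Control. Its difference of 1.88 (adjusted p = 0.00107, limma) held under all 20 alternative settings. Sox17, a transcription factor of arterial endothelium, was at 4.45 and 27.3 FPKM in ASA, 10.4 and 18.4 FPKM in CUR, 9.40 and 11.1 FPKM in ASA+CUR, 19.1 and 8.71 FPKM in Model, and 0.467 and 0.477 FPKM in Control. It rose by 3.15 (adjusted p = 0.00427), a call present under all 20 settings. Selp (P-selectin, which captures leukocytes on activated endothelium and platelets) rose by 1.86 (adjusted p = 0.0101), and Cd93 (a receptor of endothelium and myeloid cells) by 1.46 (adjusted p = 0.0254). Both lost the call without either Control replicate (highest adjusted p = 0.102 for Selp and 0.159 for Cd93). The count of 7 higher was 2 without Control replicate 0 or 1, 13 without Model replicate 0 and 4 without ASA+CUR replicate 1. Without Model replicate 1, 9 were called higher and 2 lower. Of the 7, Sox17, Selp and Apln were under 1 FPKM in both Control libraries and reached the test only through the AOM/DSS libraries, so the count gives no support to a direction of the list. In Model against Control 5 of the 31 passed, all higher, against 0 (limma) without Control replicate 1 and 14 without Model replicate 0.

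Of 9 tested pericyte genes, which mark the mural cells around capillaries, 1 rose (Pdgfrb, by 1.46, adjusted p = 0.0198, limma) and 3 fell: Abcc9 by 0.81 (adjusted p = 0.00446), Rgs5 by 1.44 (adjusted p = 0.0234) and Cspg4 by 0.79 (adjusted p just under 0.05). Over all tested genes 14.6% were called higher and 16.9% lower. The summed level of the pericyte genes was 71.8 to 202 FPKM in the AOM/DSS libraries and 135 to 188 FPKM in Control. Every one of these calls was lost without Control replicate 0, and that of Cspg4 under 13 of 19 alternative settings. Without Model replicate 0, 6 of the 9 passed.

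**Figure D5:**
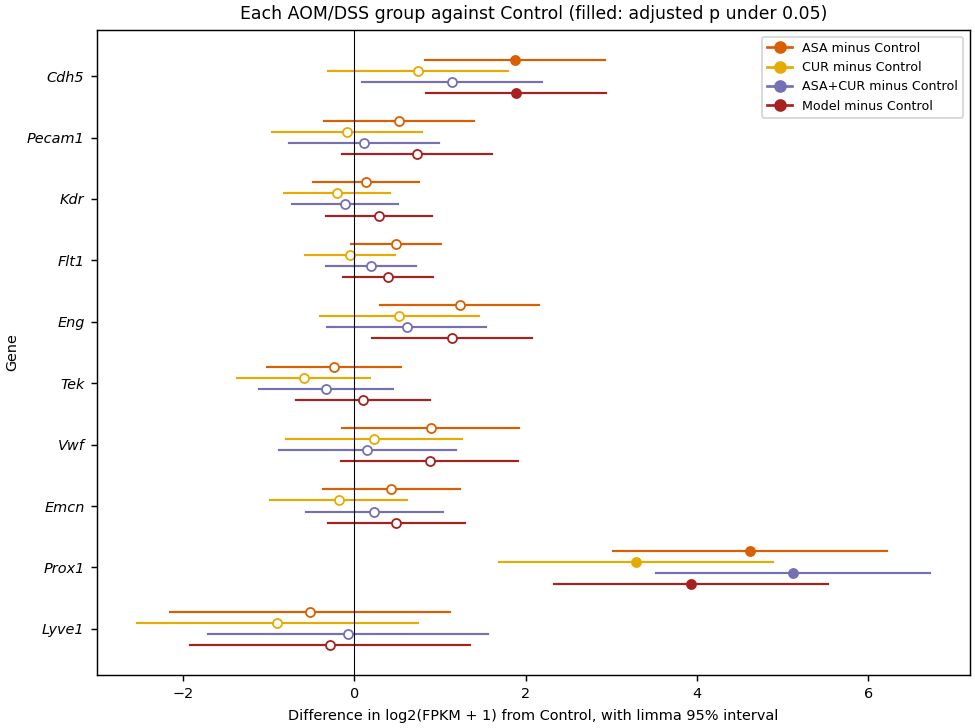
Log2 difference from Control (FPKM + 1, x axis) of the 10 genes in the ASA, CUR, ASA+CUR and Model groups, each with its 95% interval from limma. The Prox1 intervals of all 4 groups lie above 0 (estimates of 3.29 to 5.12), the Cdh5 intervals lie above 0 in ASA, ASA+CUR and Model, and those of Lyve1 cover 0 in all 4.

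No endothelial gene passed limma's threshold for any diet against Model. At an unadjusted p under 0.05 the count was 0 in ASA, 1 in CUR (Cdh5) and 0 in ASA+CUR. Over all tested genes 2 passed in ASA against Model (0.0142%), 1 in CUR (0.00711%) and 2 in ASA+CUR (0.0142%) by limma, and 335, 684 and 1416 had an unadjusted p under 0.05. In CUR all 10 genes had lower means than in Model, by 0.44 to 1.14 on the log2 scale, with a median of -0.65 beside -0.01 over all tested genes. Cdh5 averaged 11.8 ± 3.40 FPKM in CUR and 27.9 ± 11.5 FPKM in Model (SD, n = 2 each), a log2 difference of -1.14 with a 95% interval of -2.19 to -0.10 (adjusted p = 0.934, limma). CUR and Model libraries did not overlap for Cdh5, Pecam1, Kdr, Flt1 and Tek, and 12.1% of all tested genes were lower in CUR without overlap. Without Model replicate 1 the Cdh5 difference was -0.73, and that of Eng turned to 0.039. Without CUR replicate 0 the Prox1 difference turned to 0.70.

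In ASA against Model the 10 differences lay between -0.33 (Tek) and 0.69 (Prox1), all at an adjusted p of 1.00. Prox1 was at 39.9 and 43.8 FPKM in ASA and 27.0 and 24.3 FPKM in Model, without overlap, as in 12.8% of all tested genes that were higher in ASA. In ASA+CUR against Model, 8 genes were lower and 2 higher. Without Model replicate 1, 5 of the 8 turned positive: Emcn (0.29), Eng (0.12), Pecam1 (0.068), Tek (0.035) and Flt1 (0.029). Lyve1, one of the 2, turned to -0.0041 without Model replicate 0 and to -0.27 without ASA+CUR replicate 0. Cdh5 had a difference of -0.75 (95% interval -1.79 to 0.30, adjusted p = 0.561) and Prox1 of 1.19 (95% interval -0.41 to 2.79, adjusted p = 0.552). Libraries did not overlap for these 2 genes, as for 25.4% of all tested genes that were lower and 24.8% that were higher in ASA+CUR.

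The diets were also set against each other, with the combination holding each agent at a lower share of the diet than the single diets, so that doses differ. No endothelial gene passed limma's threshold. At an unadjusted p under 0.05 the count was 2 in ASA against CUR (Cdh5 and Flt1), 1 in ASA+CUR against CUR (Prox1) and 0 in ASA+CUR against ASA. In ASA against CUR all 10 genes had higher means in ASA, led by Prox1 (1.33, adjusted p = 0.832) and Cdh5 (1.14, 95% interval 0.09 to 2.19, adjusted p = 0.832). The libraries of ASA and CUR did not overlap for any of the 8 blood vessel genes, and 13.3% of all tested genes were higher in ASA without overlap. Only 1 of all tested genes was called there (0.00711%), and 691 had an unadjusted p under 0.05. In ASA+CUR against CUR the Prox1 difference was 1.83 ± 0.69 (adjusted p = 0.336, limma). Without CUR replicate 1 it was 3.17 (adjusted p = 0.00689), and the ASA difference from CUR was 2.67 (adjusted p = 0.0176), since CUR was then represented by its low library alone. Without CUR replicate 0 the ASA+CUR difference from CUR was 0.49 and the ASA difference from CUR was -0.0097, so both Prox1 differences rest on which CUR library is used. The Lyve1 difference of ASA from CUR turned to -0.11 without CUR replicate 0 and to -0.80 without ASA replicate 0. In ASA+CUR against ASA the differences lay between -0.74 (Vwf and Cdh5) and 0.50 (Prox1). By limma 0 of all tested genes passed in the comparisons of ASA+CUR with CUR and with ASA (0%), and 1944 and 399 had an unadjusted p under 0.05.

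Transcripts were listed singly for Cdh5, Kdr, Flt1, Tek, Vwf, Prox1 and Lyve1. Pecam1 had 2 transcripts, and NM_001032378 made up 48.4% to 71.6% of its FPKM, highest in ASA+CUR replicate 1. Eng had 3 and Emcn 2, in each of which a single transcript held most of the FPKM. How Cuffdiff divides fragments between such transcripts is an estimate, and the sum per gene depends less on it.

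The tested genes whose log2(FPKM + 1) was most like each endothelial gene over the 10 libraries were ranked by Pearson correlation, as a description without a p-value. Most like Lyve1 were Flt4 (r = 0.945, and 0.944 within the 8 AOM/DSS libraries), Reln (0.932) and Zfp750 (0.920). Most like Prox1 were Tcf4 (r = 0.991, and 0.959 within the AOM/DSS libraries), Sorcs2 (0.990) and Vangl2 (0.990), all over libraries that differ between AOM/DSS and Control. Most like Cdh5 were Sulf1 (r = 0.971, and 0.958 within the AOM/DSS libraries), Fam20c (0.963) and Snx18 (0.962). The nearest 3 were P3h3, Adgrf5 and Man1c1 for Pecam1, Mmrn2, Rasa3 and Cd34 for Kdr, and Ndufa4l2, Map2k5 and Tie1 for Emcn. They were Tmem104, Arhgap31 and Aqp5 for Flt1, and Vash1, Igfbp7 and Bgn for Eng. For Tek they were Zbtb16, She and Col28a1, and for Vwf C5ar2, Vcam1 and Dock10. Of these, Mmrn2 and Cd34 were in the list of further blood endothelial genes, Tie1 in that of VEGF and angiopoietin receptors, and Ndufa4l2 in that of pericyte genes. Among the members, Pecam1 and Emcn had r = 0.912, and Cdh5 and Prox1 had r = 0.626 over 10 libraries and 0.03 within the AOM/DSS libraries.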

How the data were processed

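RNA-seq libraries from mouse colon were made with the Illumina TruSeq RNA kit and sequenced on a NextSeq, per the labels' protocols. The authors deposited FPKM values per RefSeq transcript for 10 libraries. TopHat2 2.0.9, Cuffdiff, Bowtie2 2.1.0.0 and the builds mm10 and GRCm38 are listed in the submitters' processing notes, beside bcl2fastq 2.17.1.14; the Cuffdiff version and the treatment of duplicates and strand are not given in the sources used here. Of 30073 transcripts, 29443 were named from RefSeq GRCm38.p6 and 179 from GENCODE, and FPKM was summed per gene. The 14061 genes that reached 1 FPKM in 2 or more libraries were fitted on log2(FPKM + 1) by limma 3.58.1 (R 4.3.3) under an intensity trend, 1 mean per group and all 10 libraries (5 residual and 2.96 prior degrees of freedom). Tests were two-sided and adjusted within a comparison by Benjamini-Hochberg. The steps were tested on simulated data.

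Total fragments are unknown, so no counting interval is given. Summed FPKM was 515959 to 720895 and 12781 to 13283 genes reached 1 FPKM per library. Steps between low values gave rough relative depths of 1.09 to 1.34 times Control replicate 0, and no counts were recovered. ASA replicate 0 correlated with ASA+CUR replicate 0 (0.986) as closely as the Control libraries with each other.

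The members and gene lists were chosen with earlier results of these data known. All 10 members are named; from a list, up to 4 genes with the smallest p past the threshold are named, with the VEGF ligands, Angpt1 and Angpt2 always, and the 3 genes most correlated with a member. Flt4, Ccl21a and Mmrn1 as lymphatic examples and the correlations among members were chosen after their values were seen. So were genes named for how they reached the test or for their correlation with Lyve1 or Prox1. Cd68 is not analysed here.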

Additional observations from a re-analysis of the deposited data

Results flagged for a closer look

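Prox1 in CUR replicate 0 was at 5.74 FPKM, the lowest of the 8 AOM/DSS libraries, whose next lowest value was 24.3 FPKM. On log2(FPKM + 1) its gap to the nearest library, divided by the range of the 8, was above the critical value of Dixon's outlier test at 95%. The test was run on 10 sets of values, 1 per gene, at the lowest and the highest end of each, and chance marks about 1 set in 20. The 8 libraries of a set came from 4 groups and not from a single one. The same library had the lowest Wnt target sum of the AOM/DSS libraries (385 FPKM) and the highest epithelial sum of all libraries (13752 FPKM). Their part in its Prox1 value was not tested.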

How the results depend on the processing

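Alternatives were another scaling, other pseudocounts, filters and variance settings, the highest transcript only, only the groups compared, each library left out, the replicate number as a block and, chosen after seeing the data, leaving out Model replicate 1 and ASA replicate 1 together. Leaving out a library moved the number of endothelial genes called in Model against Control over 0 to 4 (2 with all libraries), in ASA against Control over 1 to 3, in CUR against Control over 0 to 1, in ASA+CUR against Control over 1 to 2 and over all AOM/DSS groups over 1 to 4. In ASA against CUR and ASA+CUR against CUR it moved over 0 to 1, with Prox1 called only without CUR replicate 1. With only the groups compared it was 0 in CUR and 3 in ASA+CUR against Control. Without Model replicate 1 and ASA replicate 1 it was 1 in Model and 2 in ASA+CUR against Control.

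Without a library, signs turned for uncalled genes: in Model against Control Emcn ranged over -0.057 to 1.04, Kdr over -0.033 to 0.62 and Tek over -0.36 to 0.56, in all AOM/DSS groups Kdr over -0.17 to 0.23, and in CUR against Model Eng over -1.27 to 0.039 and Prox1 over -1.98 to 0.70. Quantile normalization turned Tek in Model to -0.0085 and Kdr over all AOM/DSS groups to -0.071. Without Model replicate 1 and ASA replicate 1, Emcn was -0.057, Kdr -0.033 and Tek -0.36 in Model, Kdr -0.064 over all AOM/DSS groups, and Eng 0.039 in CUR against Model. The replicate block gave 2 called in Model against Control and changed no count of members. The labels do not say that a number marks a shared mouse or batch, and the deviations of same-numbered libraries from their group means correlated between -0.214 and 0.326 over 10 pairs of groups, so the numbers were not taken to pair libraries. Over all genes, 2276 calls in Model against Control became 553 to 3073 without a library. The cause was not tested. With 2 libraries per group and unknown depth, absent calls do not show equal levels.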
